A study of Mus musculus with 6 samples.

Results

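The heat shock chaperones described here are 10 genes, Hspe1, Hspd1, Hspa8, Hspa1a, Hspa1b, Hsp90aa1, Hsp90ab1, Hsph1, Dnajb1 and Hsf1, taken by symbol from an expression table of 23235 genes, in which all 10 were found. The RNA came from cells described as LT-HSCs (long-term haematopoietic stem cells), the marrow cells that sustain blood formation through life, from mice of strain C57BL/6 aged 2 months. The mice were wild type (WT) or carried an Hmces knockout, with 3 libraries for each genotype, and the comparison asks which transcripts differ when HMCES, a protein that shields abasic sites in DNA, is missing. The submitters' design note speaks of duplicates whereas the labels list 3 libraries per genotype, so which libraries that note covers is not clear, and all 6 were used as n = 3 for each genotype. Each library came from 1500 sorted cells, with cDNA amplified by Smart-seq2, a method for very small RNA inputs. The nature of the knockout allele, the sort gates and any pooling of animals are not stated in the sources used here, and the titles of all 6 libraries carry a 13 bp tag that is not explained. Nothing in the labels describes a heat or drug treatment.

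Molecular chaperones bind unfolded stretches of other proteins and help them to fold, to assemble or to be degraded. HSP70 proteins bind and release clients in a cycle driven by ATP, with HSP40 (DNAJ) proteins delivering clients and HSP110 proteins exchanging the nucleotide, while HSP90 acts late on kinases and receptors. The mitochondrial chaperonin is a chamber of HSP60 subunits capped by an HSP10 lid. Some of these genes are expressed in all cells as constitutive housekeeping members. Others are inducible and are switched on by heat shock factor 1 (HSF1) when unfolded proteins accumulate. Stem cells of the blood are known for a low rate of protein synthesis and for sensitivity to disturbed protein folding. The members were divided into constitutive genes (Hspa8, Hsp90ab1, Hspd1 and Hspe1), inducible genes (Hspa1a, Hspa1b, Hsp90aa1, Hsph1 and Dnajb1) and the regulator Hsf1. The classes were assigned and not measured here, and a gene expressed in all cells may also be inducible. Windows of Hspe1 and Hspd1 hold the longest heat shock motif searched for below, whereas those of Dnajb1 hold none.

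HSF1 binds heat shock elements, inverted repeats of the unit GAA in steps of 5 bases. The promoter windows of 4 members compared below are shown: the start region shared by Hspe1 and Hspd1, the inducible genes Hsph1 and Hspa1a, and Dnajb1, whose level lay on the opposite side from Hsph1. They are RefSeq windows of 300 bases on GRCm38.p6, from 250 bases before to 50 bases after the start site, at chr1:55087898-55088197 (plus strand) for Hspe1, chr5:149636266-149636565 (minus strand) for Hsph1, chr17:34972107-34972406 (minus strand) for Hspa1a and chr8:83607925-83608224 (plus strand) for Dnajb1. Capitals mark every match to TTCNNGAA or GAANNTTC, which include the longer 3-unit forms GAANNTTCNNGAA and TTCNNGAANNTTC. Each motif reads the same on both strands or has its reverse complement in the pair, so both strands were searched.
Hspe1: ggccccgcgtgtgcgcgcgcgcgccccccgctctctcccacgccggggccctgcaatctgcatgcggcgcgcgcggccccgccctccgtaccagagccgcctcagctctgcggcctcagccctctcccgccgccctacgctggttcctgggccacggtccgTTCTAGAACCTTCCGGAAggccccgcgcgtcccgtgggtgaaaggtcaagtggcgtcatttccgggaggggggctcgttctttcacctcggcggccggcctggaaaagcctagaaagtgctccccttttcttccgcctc
Hsph1: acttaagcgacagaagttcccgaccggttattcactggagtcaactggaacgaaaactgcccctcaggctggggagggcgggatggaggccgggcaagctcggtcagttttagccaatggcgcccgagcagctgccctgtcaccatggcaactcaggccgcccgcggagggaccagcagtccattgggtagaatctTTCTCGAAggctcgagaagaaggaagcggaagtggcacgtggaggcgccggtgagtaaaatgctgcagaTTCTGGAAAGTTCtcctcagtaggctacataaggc
Hspa1a: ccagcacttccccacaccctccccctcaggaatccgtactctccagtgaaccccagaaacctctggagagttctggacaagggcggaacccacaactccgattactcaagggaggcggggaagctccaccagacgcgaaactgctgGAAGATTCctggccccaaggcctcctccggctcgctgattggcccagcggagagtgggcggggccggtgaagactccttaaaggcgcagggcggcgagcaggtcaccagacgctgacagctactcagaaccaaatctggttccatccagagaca
Dnajb1: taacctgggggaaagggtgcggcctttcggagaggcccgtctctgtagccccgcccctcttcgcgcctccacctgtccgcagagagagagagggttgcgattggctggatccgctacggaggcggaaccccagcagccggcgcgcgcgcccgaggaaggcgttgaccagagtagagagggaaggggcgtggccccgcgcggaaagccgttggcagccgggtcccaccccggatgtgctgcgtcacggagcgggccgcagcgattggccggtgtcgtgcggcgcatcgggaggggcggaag

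Windows were found for 6 of the 10 members, Hspd1, Hspe1, Hsph1, Dnajb1, Hspa1a and Hspa1b, 9 windows in all because some genes have several start sites. A 3-unit match was found in 4 of the 9 windows, of the 3 genes Hspe1, Hspd1 and Hsph1, whereas 0.603% of all 32851 promoter windows of the same length hold one. The 4 windows are not separate sites. Those of Hsph1 overlap and hold the same match, and those of Hspe1 and Hspd1 share theirs, so the 2 shares are not directly comparable. Hspe1 and Hspd1 lie head to head on opposite strands, and a window of Hspd1 (chr1:55087883-55088182, minus strand) shares 285 bases with that of Hspe1. The capitals in the Hspe1 sequence, which start 89 bases before its start site, are therefore the same DNA that starts 144 bases before that start site of Hspd1. In Hsph1 the 3-unit match starts at base 16 after the start site shown, with a separate 2-unit match 54 bases before that site. Hspa1a holds a single 2-unit match 104 bases before its start, and its window is the same as that of Hspa1b (chr17:34959189-34959488, minus strand) at 296 of 300 bases. A 2-unit match is common, present in 15.06% of all windows, and none was found in either Dnajb1 window. These matches describe letters only and are not evidence of binding in these cells. Only exact matches within the windows were counted, so altered or more distant elements would be missed. A link between the matches and the direction of a gene's difference was not tested.

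Levels are given as FPKM, fragments scaled to transcript length and to the mapped total of the library, which can be compared between genes. In WT cells Hspa8, the constitutive cytosolic HSP70, was the most abundant member at 2896 ± 231 FPKM, followed by the constitutive HSP90 gene Hsp90ab1 at 1204 ± 71.8 FPKM (SD, n = 3). Next came Hspe1 (296 ± 8.94 FPKM), Hsp90aa1 (279 ± 85.7 FPKM) and Hspd1 (270 ± 32.6 FPKM), 3 neighbours whose libraries overlapped and whose order is therefore not resolved. Dnajb1, Hsf1 and Hsph1 followed at 85.8 ± 9.21, 44.2 ± 3.17 and 36.2 ± 5.37 FPKM, each separated from the next in every WT library. Hspa1a lay at 0.437 FPKM on average and Hspa1b was listed at 0. In knockout cells the order was the same except that Hsp90aa1 (268 ± 43.0 FPKM) stood above Hspe1 (228 ± 21.0 FPKM) and Hspd1 (227 ± 10.9 FPKM), again with overlapping libraries. The 10 genes together took 0.669% ± 0.0898 of all FPKM in WT against 0.593% ± 0.0648 in the knockouts (SD, n = 3), ranges that overlapped.

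**Figure D1:**
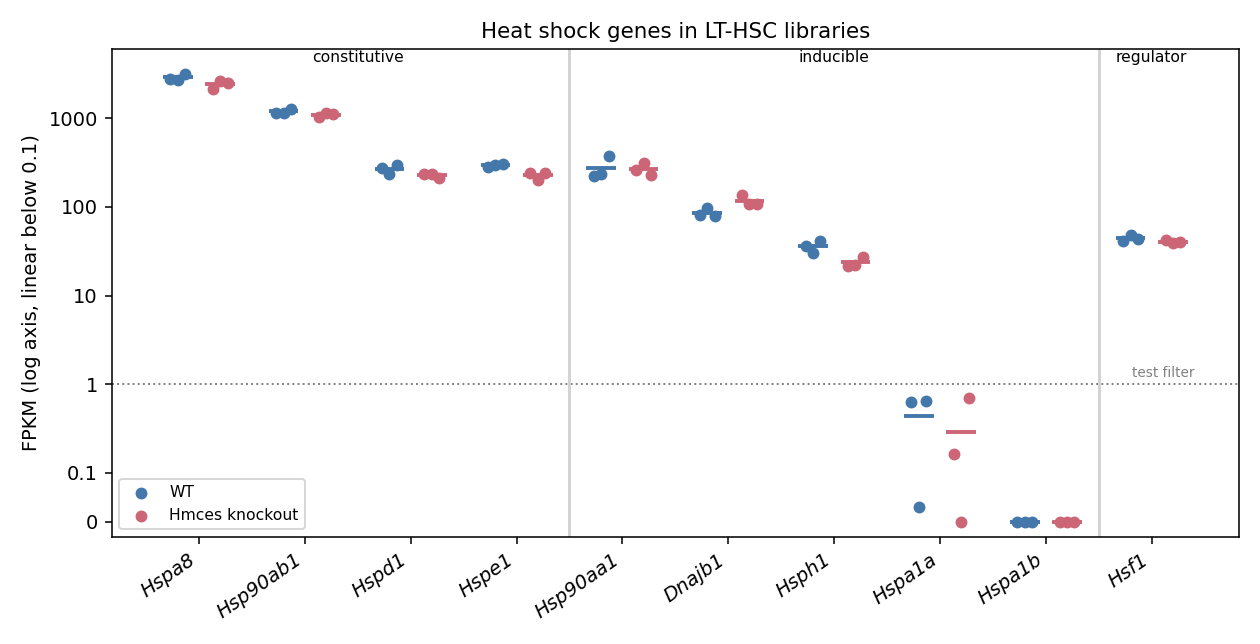
FPKM of each heat shock gene in the 3 WT and 3 Hmces knockout libraries (points) with the group mean (horizontal lines), on a log axis that is linear below 0.1. Hspa8 lies highest, near 2896 FPKM in WT, and Hspa1a and Hspa1b lie below the mean FPKM of 1 that a gene needed to be tested.

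Knockout cells had slightly lower levels of most of these genes and a higher level of Dnajb1, by amounts that did not pass the test across all genes. Of the 8 members tested, 7 had a log2 fold change below 0, against 51.9% of all 11532 genes tested. The median over the 8 was -0.19 on the log2(FPKM + 1) scale, against -0.01 over all genes. The knockout and WT libraries did not overlap for 6 of the 8 members, 5 lower and 1 higher, against 15.8% of all genes tested in either direction, 8.34% lower and 7.47% higher. No member was called by limma at a Benjamini-Hochberg adjusted p under 0.05, against 0.113% of all genes (13), and the members' adjusted p-values ran from 0.401 to 0.987. At an unadjusted p under 0.05 there were 4 members, 3 lower (Hspe1, Hsph1 and Hspa8) and 1 higher (Dnajb1), against 9.16% of all genes in either direction, 4.84% lower and 4.32% higher.

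Several facts of the libraries stand beside these differences. Hmces, listed as 8430410A17Rik, had 39.5 to 45.4 FPKM in WT and 0.222 to 8.95 FPKM in knockout libraries, in the direction of the labels. Estimated depth was 9300000 to 14200000 fragments per library, and on the first principal component knockout replicate 2 was far from the rest (67.0 against -33.6 to 10.1). Granulocyte and monocyte markers moved with genotype: 11 of 13 tested were higher in knockout libraries without overlap, against 7.47% of all genes. Of them 2 were called, against 0.113% of all genes. Their summed level was 7136 to 10990 FPKM in WT and 19656 to 26104 FPKM in knockout libraries. Mpo, the myeloperoxidase gene of granulocyte precursors, rose to 1160 ± 348 FPKM from 177 ± 71.2 in WT (SD, n = 3; limma adjusted p = 0.0307), and S100a8, a neutrophil gene, had 4135 ± 1004 and 9853 ± 2397 FPKM (adjusted p = 0.170). Their part in the differences of the heat shock genes was not tested, and in bulk RNA fewer cells of a type and less RNA per cell cannot be told apart. Of the LT-HSC markers, Kit (101 to 141 FPKM), Meis1 (122 to 160 FPKM) and Ly6a (217 to 353 FPKM) were well expressed, whereas Slamf1 lay at 1.39 to 5.08, Fgd5 at 0.414 to 1.23 and Hoxb5 at 0.0618 to 0.912 FPKM. Of the progenitor genes, Cd34 lay at 453 to 499, Flt3 at 121 to 151 and Cd48 at 145 to 307 FPKM. Fcgr3, Il7r and Irf8 lay at 4.49 to 31.5, 1.09 to 5.84 and 15.2 to 25.5 FPKM. How pure the sorted cells were was not tested. The list of LT-HSC markers had a median log2 fold change of -0.04 (13 tested, 3 higher and 0 lower without overlap). Progenitor markers had a median of 0.36 (6 tested, 0 called), and Cd48, Fcgr3 and Il7r were higher without overlap (3 higher and 0 lower). Over all genes these shares were 7.47% higher and 8.34% lower. The other marker lists had medians of 0.12 for erythroid (8 tested), 0.94 for B cell (5), -0.00 for T and NK cell (4), -0.16 for megakaryocyte (6), -1.87 for macrophage (7) and 0.33 for stromal and endothelial genes (3), with 0 genes called in each. Without overlap, 2 B cell, 1 T and NK cell and 1 stromal and endothelial gene were higher, and 1 macrophage gene was lower. The macrophage sums overlapped, at 23.3 to 128 FPKM in WT and 9.80 to 50.3 FPKM in knockout libraries.

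The mitochondrial chaperonin genes were both on the lower side in knockout cells. Hspe1, which encodes the HSP10 lid, stood at 286, 298 and 303 FPKM in WT libraries, against 240, 204 and 241 FPKM in the knockouts. Every knockout library lay below every WT library, and the WT libraries were close to each other. The knockout mean was 77.2% of WT, and the log2 fold change was -0.38 (SE 0.11, 95% interval -0.62 to -0.13, limma adjusted p = 0.401). Hspd1, which encodes the HSP60 chamber, stood at 274, 236 and 301 FPKM in WT libraries, against 233, 234 and 215 FPKM in the knockouts. The groups did not overlap, but WT replicate 2 was almost level with the highest knockout library. Its log2 fold change was -0.24 (SE 0.12, 95% interval -0.52 to 0.03, limma adjusted p = 0.587). The 2 genes share the start region printed above and the complex they build, and their FPKM ratio, Hspe1 over Hspd1, was 1.04, 1.26 and 1.01 in WT and 1.03, 0.871 and 1.12 in knockout libraries. These ranges overlapped, so the balance of lid to chamber transcript did not differ beyond its spread. RefSeq lists 6 pseudogenes named after Hspe1 and 5 named after Hspd1, and whether the authors' counting could split reads with such copies is not given, which makes both levels less certain. Only copies named after a member were counted, so those under other names, of these or of the other members, would be missed.

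Of the HSP70 genes, the constitutive member carried nearly all of the signal. Hspa8 stood at 2801, 2727 and 3160 FPKM in WT libraries, against 2162, 2617 and 2503 FPKM in the knockouts. All knockout values were lower, with knockout replicate 2 nearest to the WT range. The knockout mean was 83.8% of WT (log2 fold change -0.26, SE 0.11, 95% interval -0.51 to -0.00, limma adjusted p = 0.538). Hspa1a, the classic heat-inducible HSP70, stood at 0.634, 0.0293 and 0.649 FPKM in WT libraries, against 0.161, 0 and 0.702 FPKM in the knockouts. These correspond to an estimated 17, 1.1 and 25.5 fragments in WT and 4.3, 0 and 18.1 in knockout libraries, so the groups overlapped throughout and the gene lay below the level needed for a test. Hspa1b, its neighbouring copy, was listed at 0 in all 6 libraries. The Hspa1a and Hspa1b transcripts are 93.59% identical over 2701 aligned bases, and 38.11% of the 150-base stretches of Hspa1a, the length of a read, also occur in Hspa1b. How such reads were assigned is not given, so the listed levels of this pair are uncertain. Summed, the pair made up at most 0.028% of the FPKM of cytosolic HSP70 (Hspa1a, Hspa1b and Hspa8) in any library.

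The HSP90 genes differed in how much they varied. Hsp90ab1 stood at 1163, 1161 and 1286 FPKM in WT libraries, against 1027, 1157 and 1114 FPKM in the knockouts. The groups were separated only narrowly, between knockout replicate 2 and WT replicate 2, and the log2 fold change was -0.13 (SE 0.09, 95% interval -0.35 to 0.09, limma adjusted p = 0.703). Hsp90aa1, the inducible HSP90, stood at 222, 237 and 377 FPKM in WT libraries, against 261, 314 and 229 FPKM in the knockouts. WT replicate 3 was the highest of all 6, the groups overlapped, and the log2 fold change of -0.02 (SE 0.21, 95% interval -0.52 to 0.47, limma adjusted p = 0.987) became 0.21 without that library. Hsp90aa1 made up 16.01%, 16.96% and 22.68% of cytosolic HSP90 FPKM in WT and 20.29%, 21.37% and 17.07% in knockout libraries, with overlapping ranges.

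The co-chaperones of HSP70 lay on opposite sides. Hsph1, which encodes the HSP110 exchange factor, stood at 36.7, 30.6 and 41.3 FPKM in WT libraries, against 21.3, 22.2 and 27.5 FPKM in the knockouts. Every knockout library was lower, at a mean of 65.4% of WT (log2 fold change -0.59, SE 0.18, 95% interval -1.01 to -0.17, limma adjusted p = 0.452). Dnajb1, an HSP40 protein that delivers clients to HSP70 and also restrains HSF1, stood at 81.2, 96.4 and 79.8 FPKM in WT libraries, against 135, 108 and 109 FPKM in the knockouts. Every knockout library was higher, 1.37-fold on average (log2 fold change 0.44, SE 0.14, 95% interval 0.12 to 0.77, limma adjusted p = 0.479). Both genes are classed as inducible and both serve HSP70, and the ratio of Dnajb1 to Hsph1 FPKM within a library was 2.21, 3.15 and 1.93 in WT and 6.33, 4.85 and 3.98 in knockout libraries. That ratio was thus higher in each knockout library than in any WT library, with means of 2.43 ± 0.639 and 5.05 ± 1.19 (SD, n = 3), a description of a pair picked after its values were seen and not a test. Set against Hspa8, Dnajb1 stood at 2.53% to 3.53% in WT and 4.11% to 6.22% in knockout libraries, and Hsph1 at 1.12% to 1.31% and 0.849% to 1.10%.

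Hsf1, the transcription factor gene, did not differ beyond its spread. It stood at 41.8, 47.8 and 43.1 FPKM in WT libraries, against 42.5, 38.7 and 40.5 FPKM in the knockouts. The groups overlapped at knockout replicate 1 and WT replicate 1, and the log2 fold change was -0.12 (SE 0.13, 95% interval -0.43 to 0.19, limma adjusted p = 0.806). HSF1 is regulated largely as a protein, through release from chaperones and phosphorylation, which transcript levels do not measure.

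**Figure D2:**
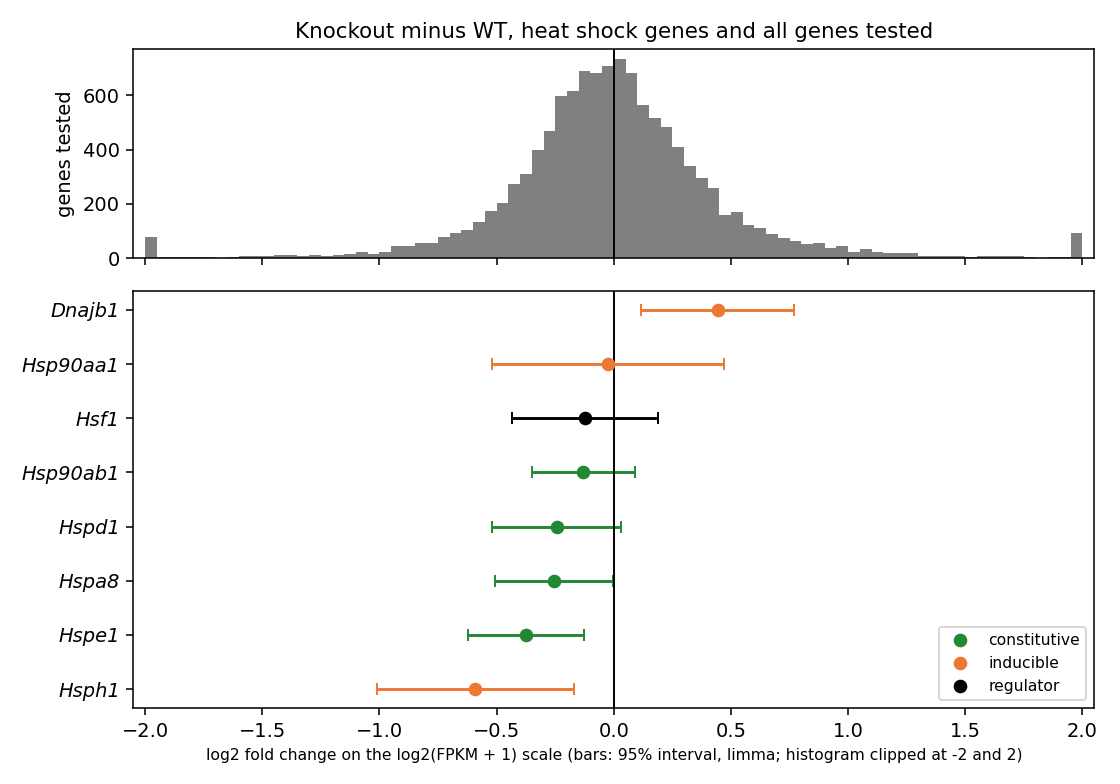
Log2 fold change of the 8 tested members, WT subtracted from knockout, in log2(FPKM + 1) units, with 95% intervals from limma (lower panel, coloured by class), under the distribution of log2 fold changes of all 11532 genes tested (upper panel). The estimates run from -0.59 for Hsph1 to 0.44 for Dnajb1, and the intervals of Hspe1, Hspa8, Hsph1 and Dnajb1 leave out 0, unadjusted for the number of genes.

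Constitutive and inducible members, in the classes assigned above, did not form 2 blocks. All 4 constitutive genes were lower in knockout cells without overlap, against 8.34% of all genes tested, with log2 fold changes between -0.38 and -0.13. Hspd1 and Hsp90ab1 were separated only narrowly, and their 95% intervals included 0. The 3 inducible genes that could be tested spread from -0.59 for Hsph1 through -0.02 for Hsp90aa1 to 0.44 for Dnajb1. Summed, the constitutive genes reached 4524, 4422 and 5050 FPKM in WT and 3661, 4212 and 4073 FPKM in knockout libraries. The inducible genes reached 340, 364 and 499 FPKM in WT and 418, 444 and 367 FPKM in knockout libraries. The constitutive sums did not overlap, whereas the inducible sums did, and Hsp90aa1 made up most of the inducible sum in each library. The inducible sum was 8.55% ± 1.21 of the constitutive sum in WT, against 10.3% ± 1.21 in the knockouts (SD, n = 3), with overlap between WT replicate 3 (9.88%) and knockout replicate 3 (9.01%). Summed granulocyte and monocyte markers, unlike this ratio, were higher in each knockout library than in any WT library, as given above. A link between those markers and these sums was not tested.

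**Figure D3:**
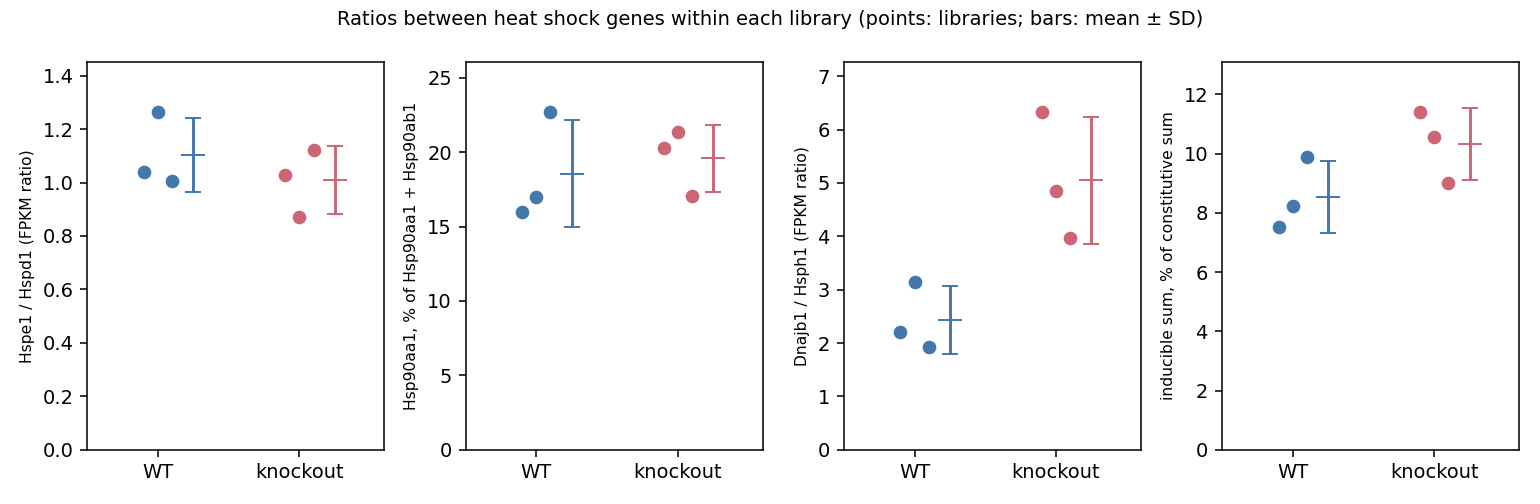
Ratios of FPKM between heat shock genes within each library (points), with the mean and SD of 3 libraries beside them; all axes start at 0. The Dnajb1 to Hsph1 ratio separates the groups (1.93 to 3.15 in WT, 3.98 to 6.33 in knockout), and the ranges of the other 3 ratios overlap.

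The wider chaperone network, given by 10 lists of 120 genes of which 107 were tested, showed no call over all genes. At an unadjusted p under 0.05 there were 8 genes lower and 1 higher by limma, 8.41% of the 107 against 9.16% of all genes (4.84% lower, 4.32% higher). Of the 107, 68 (63.6%) were below 0 against 51.9% of all genes, with a median log2 fold change of -0.07 against -0.01. The groups did not overlap for 14.95% of them (14 lower, 2 higher), against 15.8% of all genes tested (8.34% lower, 7.47% higher). The total was thus close to that of all genes, but its split leaned to the lower side. Subunits of the CCT chaperonin, which folds actin and tubulin, were the list in which all tested genes, 8 of 8, had a negative log2 fold change (median -0.12). Of them 3 were lower and 0 higher without overlap, against 8.34% and 7.47% of all genes. Cct6a averaged 370 ± 27.1 FPKM in WT against 309 ± 18.5 FPKM in knockout cells (SD, n = 3), and Cct5, the most abundant subunit, had 494 ± 69.5 and 467 ± 17.2 FPKM. Of 6 genes of prefoldin, which hands clients to CCT, 4 were negative (median -0.06), with Pfdn5 at 267 ± 24.9 and 263 ± 56.1 FPKM and Pfdn6, listed as H2-Ke2, at 136 ± 19.4 and 118 ± 7.27 FPKM.

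Lists of HSP70 partners held mostly negative log2 fold changes, against 51.9% of all genes, but 1 gene in each of the 3 lists was lower without overlap and 0 were higher, against 8.34% and 7.47% of all genes. Of 15 cytosolic DNAJ genes, 13 had a negative log2 fold change (median -0.09), with Dnajb14 at 4.65 ± 1.31 FPKM in WT against 2.28 ± 0.446 FPKM in knockout cells and the abundant Dnajc9 at 186 ± 18.4 and 179 ± 19.2 FPKM (SD, n = 3). Dnajb1 thus lay opposite to most other DNAJ genes in the sign of its difference, without a test of that contrast. Of 9 genes for BAG proteins and other HSP70 partners, 7 were negative (median -0.21), with Bag4 at 11.9 ± 2.32 and 6.27 ± 4.71 FPKM and the ubiquitin ligase gene Stub1 at 158 ± 20.3 and 129 ± 6.48 FPKM. Of 6 other HSP70 and HSP110 genes, 5 were negative (median -0.11), with Hspa12b at 4.22 ± 1.89 and 2.10 ± 2.20 FPKM and Hspa14 at 80.8 ± 12.3 and 78.7 ± 10.8 FPKM. None of these differences passed the test.

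HSP90 co-chaperones were split evenly, with 9 of 18 genes negative and a median of 0.01, and 4 lower and 1 higher without overlap, against 8.34% and 7.47% of all genes. Fkbp5, a glucocorticoid-induced immunophilin, averaged 7.30 ± 0.786 FPKM in WT against 11.1 ± 3.23 FPKM in knockout cells, and Ptges3, which encodes the co-chaperone p23, had 263 ± 38.2 and 240 ± 10.4 FPKM (SD, n = 3). Cdc37, which loads kinases onto HSP90, and the immunophilin gene Fkbp4 were picked after their values were seen: Cdc37 had 185 ± 3.99 and 150 ± 6.33 FPKM (limma adjusted p = 0.482) and Fkbp4 had 257 ± 18.4 and 204 ± 14.8 FPKM (adjusted p = 0.482). Both were lower in every knockout library than in any WT library, as Hsp90ab1 was.

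Organelle chaperones gave no common direction. Of 17 mitochondrial chaperone and protease genes, 9 were negative (median -0.18, 3 lower and 0 higher without overlap, against 8.34% and 7.47% of all genes). Hspa9, the mitochondrial HSP70 that passes imported proteins to the chaperonin, averaged 209 ± 5.11 FPKM in WT against 169 ± 24.5 FPKM in knockout cells, below WT in each library (limma adjusted p = 0.533), and the protease gene Lonp1 had 43.0 ± 12.3 and 27.3 ± 13.6 FPKM (SD, n = 3). Of 17 endoplasmic reticulum chaperones, 10 were negative (median -0.03), and 1 was lower and 1 higher without overlap. Calr had 494 ± 31.0 and 487 ± 64.9 FPKM and Dnajc10 had 27.7 ± 6.17 and 33.2 ± 2.84 FPKM. Small heat shock genes were low, with 4 of 10 tested, all positive in log2 fold change (median 0.30) but with 0 called and 0 without overlap, and Hspb3 and Cryaa listed at 0 throughout. Cryab had 1.54 ± 1.03 and 2.85 ± 2.11 FPKM, Hspb11 had 20.8 ± 6.93 and 21.6 ± 10.2 FPKM, and Hspb1, a common marker of the heat shock response, was at 0.766 FPKM or lower in each library. Of 7 tested HSF factors and regulators, 4 were positive (median 0.03), with Hsbp1 at 178 ± 3.40 and 162 ± 47.9 FPKM and Atf1 at 44.6 ± 7.39 and 38.8 ± 11.3 FPKM.

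**Figure D4:**
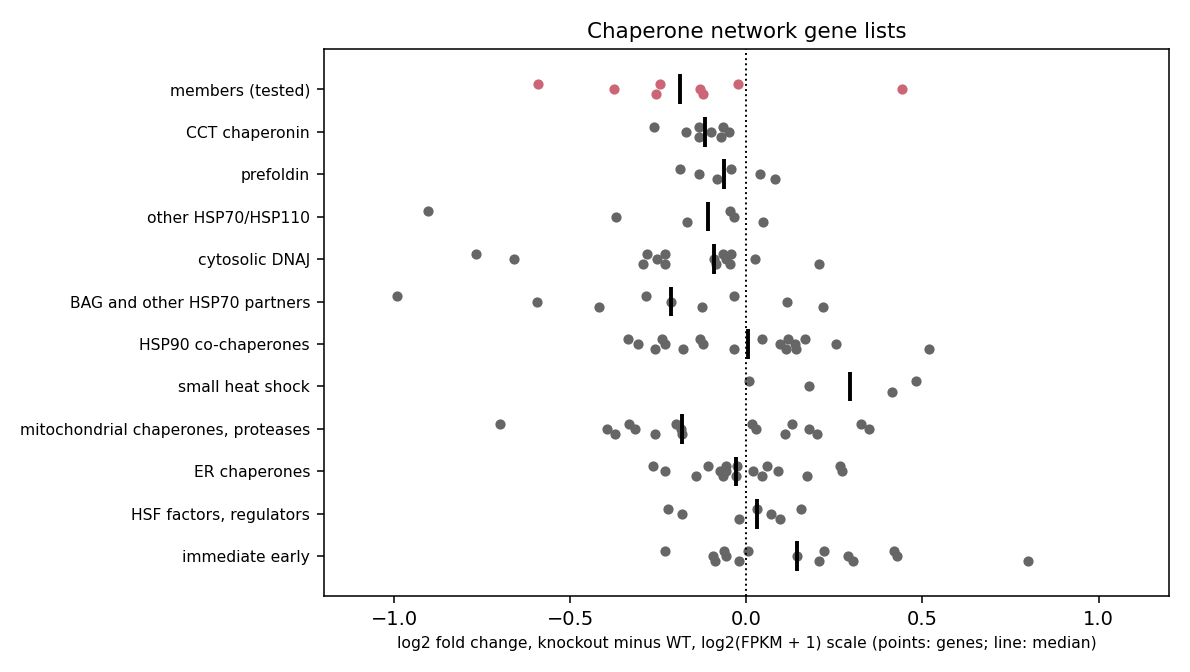
Log2 fold change (WT subtracted from knockout, in log2(FPKM + 1) units) of each tested gene (points) in the heat shock members and in 11 gene lists, with the list median (vertical lines). The members have a median of -0.19, the CCT subunits all lie below 0, and no gene shown was called.

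Immediate early genes, which respond within minutes to handling and growth signals, varied widely in level, from Fos as the highest to Egr2 as the lowest. Egr2, like Hspa1a, was below 1 FPKM in each library and was not tested. Fos averaged 826 ± 91.5 FPKM in WT against 827 ± 58.4 FPKM in knockout cells (SD, n = 3), and the list summed to 2573 to 3261 FPKM in WT and 3046 to 3255 FPKM in knockout libraries. Of 15 tested, 9 were positive (median 0.15), 3 were higher and 0 lower without overlap (7.47% and 8.34% of all genes) and 0 were called, with Btg2 at 46.5 ± 3.63 and 83.3 ± 22.5 FPKM (limma adjusted p = 0.324). A link between these genes and the members was not tested.

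Among 6708 genes with a mean of at least 10 FPKM, those whose profile over the 6 libraries lay nearest to Hspe1 were Nars, an asparaginyl-tRNA synthetase gene, the nucleolar gene Lyar and Phgdh, the first enzyme of serine synthesis. Their root mean square differences from Hspe1, on the centred log2(FPKM + 1) scale, were 0.01, 0.05 and 0.05. Nars stood at 99.3, 102 and 104 FPKM in WT libraries, against 82.8, 71.7 and 82.8 FPKM in the knockouts, so that it followed Hspe1 library by library. The nearest tested member to Hspe1 was Hsf1 (0.15, place 460 of the candidates), ahead of Hspd1 (0.16, place 665), and Dnajb1 was the farthest (0.43, place 5315). For Hspa1a the nearest were Slco4a1, Idua and Srbd1 (0.09, 0.10 and 0.11), a ranking that rests on at most 25.5 estimated fragments of Hspa1a in a library. The log2(FPKM + 1) scale also compresses the differences of a gene this low. With 6 libraries and 6708 candidates, close profiles of this kind are a description only.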

How the data were processed

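RNA sequencing of 6 LT-HSC libraries, 3 WT and 3 Hmces knockout, was analysed from 1 deposited table of FPKM values (fragments scaled to transcript length and library total), made by the authors with 1 column per library. Per the submitters' processing notes, TopHat2 2.1.1, Cufflinks 2.2.1 and build mm9 were used. The annotation, options and strand setting are not stated in the sources used here. Genes with a mean of at least 1 FPKM (11532) entered the test as log2(FPKM + 1), unscaled otherwise. The model was limma's (version 3.58.1, R version 4.3.3; lmFit, then eBayes with trend) with genotype as the only term, two-sided, adjusted by Benjamini-Hochberg over all genes tested. On simulated data these steps called 46% of genes with a true log2 change of 1 and 85% of those with 2, with 6 false calls among 11532 genes. The changed genes were drawn only from those with a mean log2(FPKM + 1) above 3. Smaller changes, and changes in lower genes, were not simulated. Fold changes on this scale understate those of low genes. Depth was estimated from the commonest low value of single-transcript genes over 1500 nt, assuming fragments of 200 nt, and covers counting error only. Identity was computed with Biopython 1.88. Members, lists and classes were chosen with earlier results of these data known. Named genes were the 10 members, the most abundant and most changed gene of each pathway list, Hmces, Mpo, S100a8 and the nearest profiles of Hspa1a and Hspe1. Others are marked where named, apart from the markers. The labels do not say whether libraries came from separate mice, so a p-value reflects the spread of these samples alone, possibly a technical one. Alternatives changed the pseudocount, filter, scaling, variance model and gene set, added a replicate block, and left out each library in turn.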

Additional observations from a re-analysis of the deposited data

How the results depend on the processing

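No member was called under any of the 16 alternative fits, in which the smallest adjusted p of a member ran from 0.313 to 0.820. Hspe1 kept a negative log2 fold change in all of them (-0.42 to -0.30). So did Hsph1 (-0.70 to -0.49), Hspa8 (-0.31 to -0.16), Hspd1 (-0.34 to -0.16), Hsp90ab1 (-0.17 to -0.02) and Hsf1 (-0.16 to -0.07), and Dnajb1 stayed positive (0.34 to 0.53). Only the pseudocount, the scaling and the left-out libraries changed these estimates. The filter, variance model, gene set and replicate block left them unchanged, so those fits could not alter a sign. Hsp90aa1 turned to 0.035 under quantile normalization and ran from -0.17 to 0.21 when libraries were left out in turn, positive without WT replicate 3 (0.21) or knockout replicate 3 (0.08). The count of members without overlap, 6, was 6 or 7 when libraries were left out, alternatives added after seeing the data. It was 6 without knockout replicate 2, while the share of all genes rose to between 23.0% and 30.0%. Leaving out a library cannot make separated groups overlap, so this count could not fall and is not a check of it. The log2 change of the inducible to constitutive ratio, 0.27, stayed between 0.18 and 0.38. Over all genes, the 13 calls became 6 without the variance trend, 1 with no filter, 20 with robust estimation and 36 without small RNA genes, and 2 to 19 when libraries were left out (7 with WT replicate 2 removed, 5 and 2 with knockout replicates 2 and 3 removed). The cause was not tested. With the replicate block the count was 2 and no member was called. Same-numbered libraries had deviations correlated at 0.08, 0.01 and 0.04, so the numbers were not taken to pair them. Hspa1a had at most 25.5 estimated fragments in a library, where 1 fragment is worth 0.0254 to 0.0388 FPKM, and Hspa1b was listed at 0.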

Other observations

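Genes outside the chaperone members that carry the 3-unit heat shock motif in a promoter window were counted as a further description. Of 8119 tested genes with a window, 50 held the motif, 47 of them not members. Genes of the wider chaperone lists were not left out, and genes with overlapping windows were each counted, so the 47 may not be separate sites. Of these 47, 35 (74.5%) had a negative log2 fold change, against 52.3% of all tested genes with a window, and the median was -0.10 against -0.02. The groups did not overlap for 12.8% of the 47 (5 lower, 1 higher), against 16.0% of all genes with a window, and 0 were called by limma. This count was chosen after the promoter sequences and the fold changes of the members were seen.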
